A study of Danio rerio with 6 samples.

Results

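The miR-430 family was followed in whole zebrafish embryos raised with and without ethanol. Its members were taken as every zebrafish probe whose name holds miR-430 followed by a letter. This gave 5 probes, dre-miR-430a, dre-miR-430b, dre-miR-430c, dre-miR-430i and dre-miR-430j (dre for Danio rerio, left out from here on), of the 243 probes named for zebrafish microRNAs (miRNAs). MicroRNA was profiled at 24 h after fertilisation in embryos from 3 groups. These were untreated embryos in system water, embryos in 1% ethanol and embryos in 1.5% ethanol, with exposure between 4 h and 24 h per the protocols. The labels give no strain or genotype, and each sample was total RNA of pooled whole embryos, so fewer cells of a type and less miRNA per cell cannot be told apart. Each group had 2 biological replicates, each on 1 single-colour (Cy3) array with 4 spots for a probe.

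miR-430 is switched on when the zebrafish embryo starts to transcribe its own genome. It shortens the poly(A) tails of many maternal mRNAs, lowers their translation and speeds their loss, as the embryo passes from maternal to zygotic control. In zebrafish it also tunes Nodal signalling through an activator and an inhibitor of that pathway, and represses germ-plasm mRNAs in somatic cells. Exposure here started at the blastula stage, close to the onset of the family in normal development, and RNA was collected after somites, brain and heart had begun to form. The members share a seed, the stretch near the 5′ end that pairs with target mRNAs, and differ elsewhere. Closely related forms can share signal on such probes, which was not tested here. In the RefSeq annotation of assembly GRCz12tu, 58 genes carried a miR-430 name with one of 4 of these letters, 18 for a, 19 for b, 18 for c and 3 for i, and no entry was matched for j. Of the 58 genes, 57 lay on 1 chromosome. In that run, of 56 neighbouring pairs, 45 joined genes of different letters. The sources used here do not name the build behind the array design, so no coordinates are given.

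Each array held 5040 spots, of which 376 were empty or blank. The median foreground intensity of the empty and blank spots was 127 and 101 for control, 104 and 99 for 1% ethanol and 112 and 98 for 1.5% ethanol. Spots are usable here if the scanner software had not marked them to be ignored. A probe is said to rise above the empty spots of an array if its usable spots that exceed the 95th percentile of those blanks are at least as many as those that do not. That percentile lay between 255.7 and 451.1 intensity units. By that measure 28 of the 243 zebrafish probes were above the empty spots on all arrays and 159 on none. Of 11 marker miRNAs of embryonic tissues, the neural miR-9, the muscle miR-1 and the epidermal miR-203a were above them on 6 arrays. The neural miR-124 and the muscle miR-133a were above them on 1 array, and the other 6 markers, of muscle, skin, vessels, blood and liver, on none. Levels are given as normalised log2 intensities, in which 1 unit is a doubling. Such a level depends on the probe as well as on the miRNA, so levels are compared between arrays for 1 probe and never between probes. Precision is limited by the number of arrays, with a standard error (SE) of 0.21 for the fold change of the median probe on the log2 scale.

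The family divided into members with clear signal and members without it. miR-430j and miR-430b were above the empty spots on 6 of 6 arrays, and miR-430a on 1. miR-430c and miR-430i were above them on 0 arrays. No member passed the test in any comparison of ethanol with control or of the doses with each other. The level of miR-430j was lower on both 1.5% arrays than on both control arrays, as for 17.3% of all probes. The difference was less than the test could separate from zero. Its sign turned in 2 of 22 alternative processing settings, several of which cannot change it, such as the replicate and position blocks. A lower level of miR-430b at 1% ethanol rested on 1 printed spot and took the opposite sign without it.

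**Figure D1:**
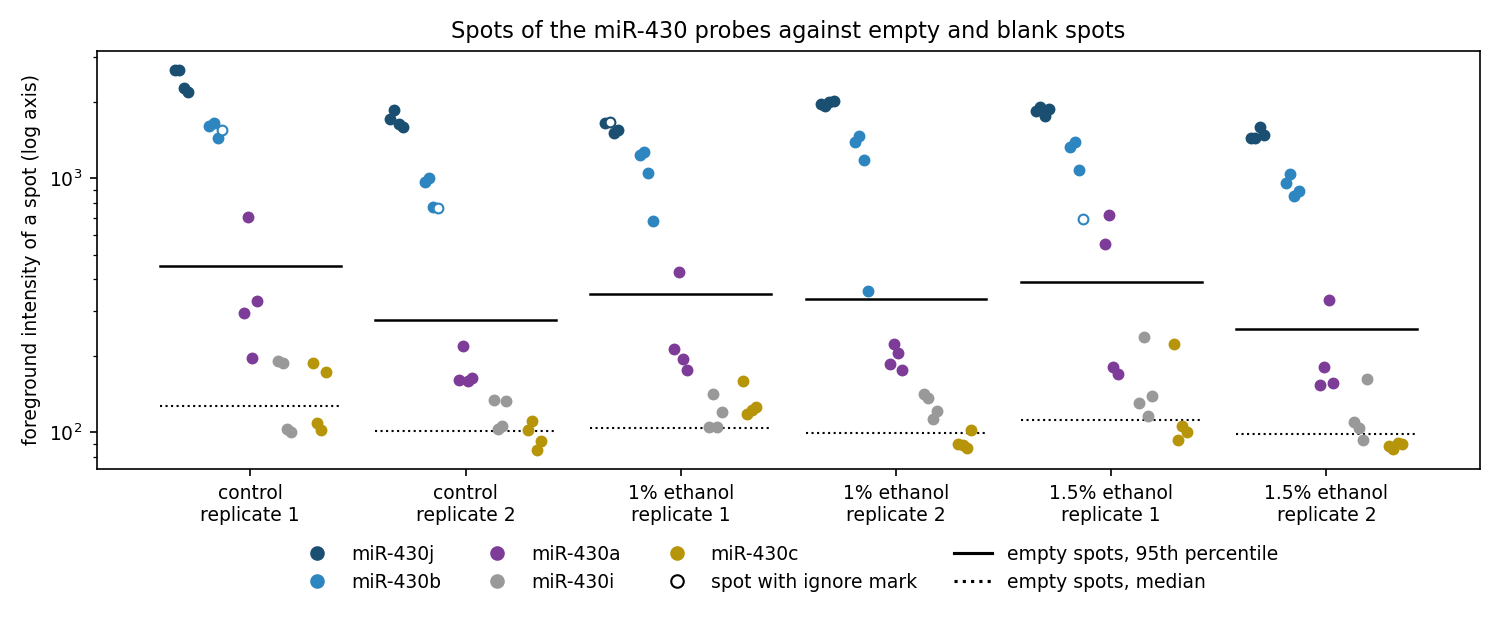
Raw foreground intensity (log axis) of every spot of the 5 miR-430 probes on the 6 arrays, in the order control, 1% and 1.5% ethanol, with each array's 95th percentile (solid line) and median (dotted line) of blank and empty spots, and open points for spots with the ignore mark. The spots of miR-430j and miR-430b lie above that percentile on every array, those of miR-430c and miR-430i lie below it, and those of miR-430a straddle it on some arrays.

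miR-430j gave tight readings. Its usable raw spots ran from 2191 to 2678 on control replicate 1 and from 1597 to 1863 on control replicate 2. At 1% ethanol they ran from 1507 to 1653 on replicate 1 and from 1924 to 2019 on replicate 2. At 1.5% ethanol the ranges were 1765 to 1913 and 1445 to 1596. The highest spot of an array was thus between 1.05 and 1.22 times its lowest, and every spot was well over the empty spots. On the normalised log2 scale the level was 10.80 and 10.99 in control, 10.71 and 10.93 at 1% ethanol, and 10.73 and 10.62 at 1.5% ethanol. The group means were 10.90 ± 0.14, 10.82 ± 0.16 and 10.68 ± 0.08 in the same order of dose (SD, n = 2 each). The means step down with dose. Neighbouring doses overlap, and the 1.5% arrays lie below both control arrays, as for 17.3% of all probes. The step depended on the processing. Over 22 alternative settings the sign turned in 5 at 1% against control, in 2 at 1.5% against control and in 3 between the doses. Several settings leave these differences as they are, among them the replicate and position blocks and the choice of probes tested. Leaving out an array of the group not compared does so too, so these counts do not measure how stable the sign is.

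miR-430b was also well over the empty spots, and 1 of its 4 spots stood apart. With the usable spots averaged, its level was 10.23 and 10.06 in control, 9.99 and 9.79 at 1% ethanol, and 10.21 and 9.95 at 1.5% ethanol. The means were 10.14 ± 0.12, 9.89 ± 0.14 and 10.08 ± 0.18 (SD, n = 2 each). Both 1% arrays lay under both control arrays, and the 1.5% arrays overlapped each of the other groups. The ignore mark was carried by 4.64% to 11.7% of the spots of an array.

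miR-430a stood at the edge of detection. Its level was 7.84 and 7.44 in control, 7.89 and 7.59 at 1% ethanol, and 8.0 and 7.67 at 1.5% ethanol, with means of 7.64 ± 0.28, 7.74 ± 0.21 and 7.83 ± 0.23 (SD, n = 2 each). The 3 groups overlapped. The array on which it was above the empty spots, 1.5% ethanol replicate 1, reached that by 2 spots of the upper print rows, at 553 and 719 with local background of 226 and 274. The other 2 spots, in the lower print rows, read 181 and 169 there.

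miR-430c and miR-430i read like empty spots. The normalised level of miR-430c was 6.89 and 6.69 in control, 7.05 and 6.57 at 1% ethanol, and 6.86 and 6.61 at 1.5% ethanol. That of miR-430i was 6.82 and 6.90 in control, 6.88 and 6.90 at 1% ethanol, and 7.16 and 6.89 at 1.5% ethanol. Medians over the 4 spots lay between 89 and 140.5 raw intensity units for miR-430c and between 107 and 145.5 for miR-430i, against empty-spot medians of 98 to 127. For both probes no signal could be told from the empty spots, and no fold change can be drawn from these readings. Since a level depends on the probe too, they set no limit on the amount of either miRNA.

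**Figure D2:**
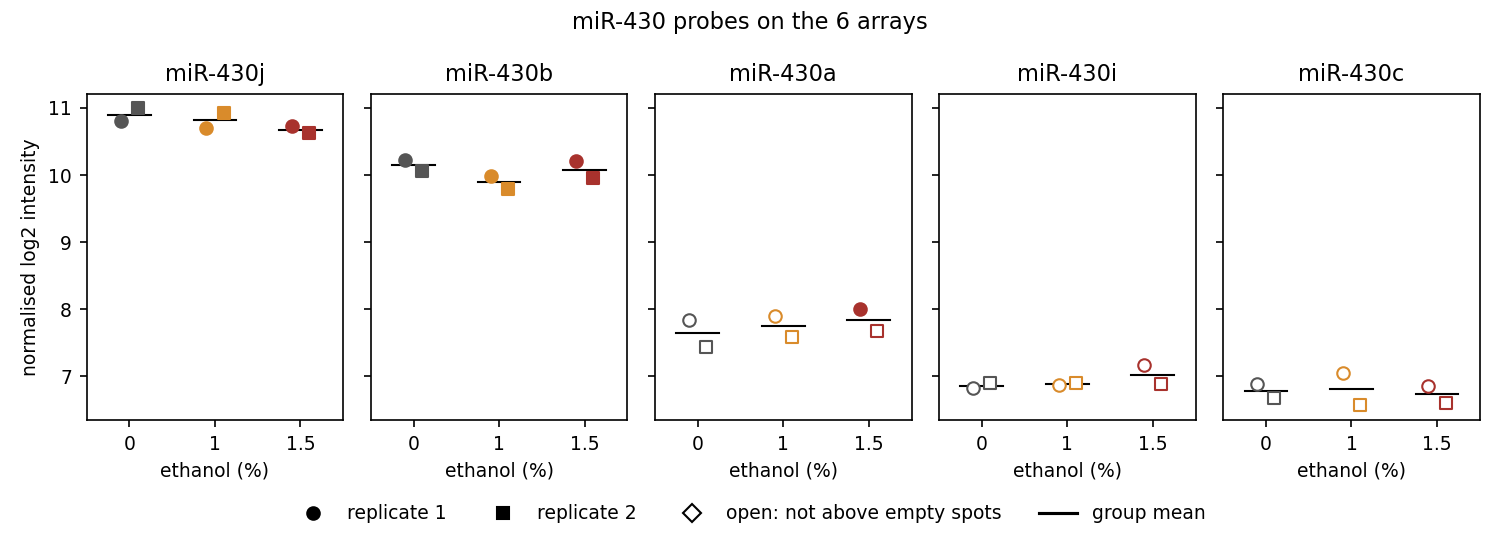
Normalised log2 intensity of the 5 miR-430 probes, by ethanol dose (control, 1% and 1.5%), with a point for each array and the group mean. Filled and open points separate arrays on which the probe was and was not above the empty spots, and the means of miR-430j step down from 10.90 to 10.82 and 10.68 while the arrays of neighbouring doses overlap.

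The first comparison asked whether the family differed in embryos raised in 1% ethanol. A linear model was fitted with limma to the 243 zebrafish probes on the 6 arrays, and a probe was called at a Benjamini-Hochberg adjusted p under 0.05 over all 243. Of the 5 members 0 were called, where 0.412% of all probes were (1 of 243), and 0 members had an unadjusted p under 0.05, where 15 probes did. miR-430j averaged 10.82 at 1% ethanol, against 10.90 in control. The log2 fold change was -0.08 (SE 0.17, 95% interval -0.50 to 0.35, limma adjusted p = 0.919). miR-430b averaged 9.89 at 1% ethanol, against 10.14 in control, and its log2 fold change was -0.25 (SE 0.18, interval -0.70 to 0.19, limma adjusted p = 0.874). It was the 1 member whose 1% arrays both lay below both controls, and 16.9% of all probes did so. No member had both 1% arrays above both controls, where 20.6% of all probes did. The median log2 difference over the 5 members was 0.02, beside 0.00 over all probes. The median over the members is the difference of miR-430c, whose readings carry no fold change. That over all probes is the difference of miR-203b, which was above the empty spots on 0 arrays.

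The comparison of 1.5% ethanol with control asked whether the family differed at the higher dose. Here 0 of 5 members were called, where 0% of all probes were, and 0 members had an unadjusted p under 0.05, where 12 probes did. miR-430j averaged 10.68 at 1.5% ethanol, against 10.90 in control. The log2 fold change was -0.22 (SE 0.17, 95% interval -0.64 to 0.20, limma adjusted p = 0.964), a mean 0.858 times that of control. Of the members it alone had both 1.5% arrays under both control arrays, as did 17.3% of all probes. The sign turned when arrays were scaled to the 8 Ncode_Control spots (0.28) and in the authors' table, which is scaled to the same spots (0.11). Those scalings lifted the median of all probes by 0.43 and 0.32. Relative to that median, the miR-430j difference was -0.23 by the main values and between -0.32 and -0.06 over the settings run. Many of these settings cannot differ in this quantity, since a constant per array cancels in it, and the replicate and position blocks and leaving out a 1% array leave it as it is.

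For miR-430b at 1.5% ethanol the mean was 10.08, against 10.14 in control, and the log2 fold change was -0.06 (SE 0.18, interval -0.51 to 0.38, limma adjusted p = 0.977). miR-430a averaged 7.83 at 1.5% ethanol, against 7.64 in control, with 1 of the 2 arrays at 1.5% and 0 of the 2 control arrays above the empty spots. No member had both 1.5% arrays above both controls, where 11.5% of all probes did. The median over the 5 members was -0.05, beside 0.01 over all probes. That median is the difference of miR-430c, whose readings carry no fold change.

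Between the doses, 0 of 5 members were called, where 0% of all probes were, with 0 members and 18 probes at an unadjusted p under 0.05. By the usable spots the arrays of both doses overlapped for every member, where 15.2% of all probes had both 1.5% arrays above both 1% arrays and 16.5% had both below. miR-430j averaged 10.68 at 1.5% ethanol, against 10.82 at 1%, a log2 fold change of -0.14 (interval -0.57 to 0.28, limma adjusted p = 0.910). miR-430b averaged 10.08 at 1.5% ethanol, against 9.89 at 1%, a log2 fold change of 0.19 (interval -0.25 to 0.64, limma adjusted p = 0.869). The comparisons share arrays, so their values are not independent of each other.

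With both doses set against control, 0 of 5 members were called, where 0.412% of all probes were, and 0 members against 8 probes had an unadjusted p under 0.05. For 0 members did all ethanol arrays lie above both controls, where 4.94% of all probes did so, or below both, where 5.76% did. The log2 fold change of miR-430j was -0.15 (SE 0.15, interval -0.52 to 0.22, limma adjusted p = 0.902) and that of miR-430b was -0.16 (SE 0.16, interval -0.54 to 0.23, adjusted p = 0.902). In the moderated F test for any difference among the 3 groups, 0 of 5 members passed, where 0.412% of all probes did. For miR-430j and miR-430b the 95% intervals reached no lower than -0.70 and no higher than 0.38 on the log2 scale against control. Other settings widened them. Without the fourth miR-430b spot the upper limit at 1% ethanol was 0.62, and under Ncode_Control scaling that of miR-430b at 1.5% ethanol was 1.14. The lower limit was -1.31 for miR-430b at 1% ethanol in the lower print rows, and -1.16 for miR-430j at 1.5% ethanol with slide as a block. Intervals of the slide-block fit were equally wide for miR-430b and miR-430j.

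**Figure D3:**
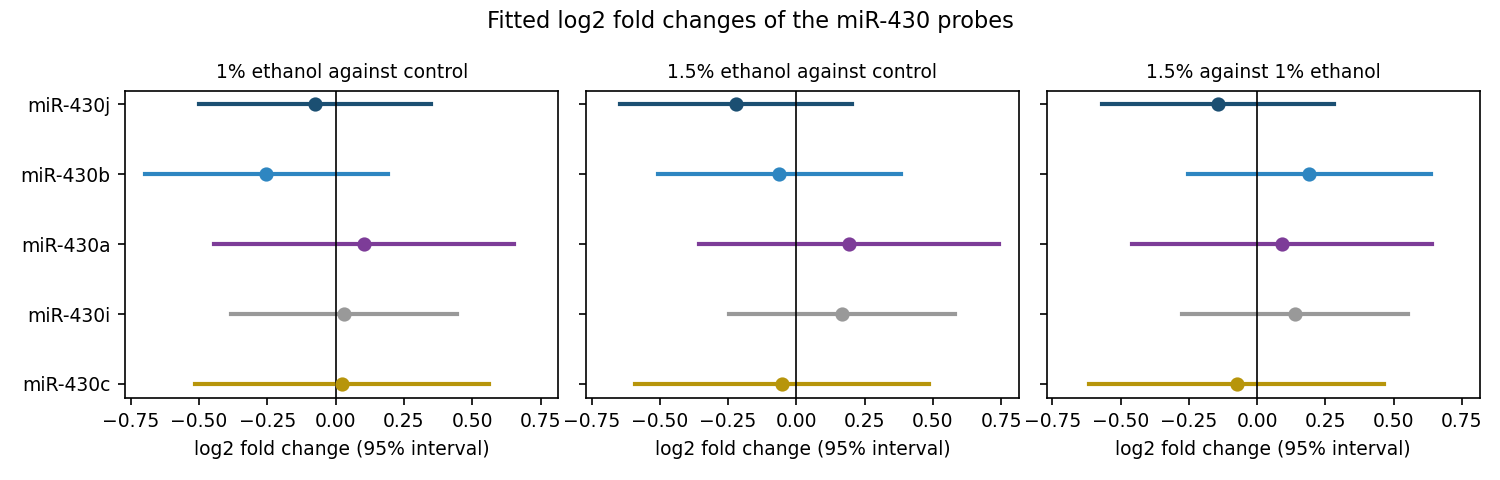
Log2 fold change of the 5 miR-430 probes with 95% intervals from limma, for 1% ethanol against control, 1.5% ethanol against control and 1.5% against 1% ethanol. All intervals span zero, and values of miR-430a, miR-430c and miR-430i are differences between readings mostly not above the empty spots.

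The lower reading of miR-430b at 1% ethanol was traced to its spots. The first 3 spots read 1606, 1650 and 1442 on control replicate 1 and 967, 1007 and 772 on control replicate 2. At 1% ethanol they read 1239, 1275 and 1048 on replicate 1 and 1393, 1465 and 1178 on replicate 2. At 1.5% ethanol they read 1333, 1389 and 1077 on replicate 1 and 961, 1042 and 851 on replicate 2. On each array the first 2 of these spots lay close together, and the third read lower than both.

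The fourth spot had a foreground of 1545 and 764 in control, 678 and 359 at 1% ethanol, and 689 and 890 at 1.5% ethanol. As a ratio to the median of the first 3 it was 0.962 and 0.790 in control, 0.547 and 0.258 at 1% ethanol, and 0.517 and 0.926 at 1.5% ethanol. It was thus low on both 1% arrays and on 1.5% ethanol replicate 1. Its local background on the 1% arrays was 235 and 183, where the median of its print block was 95 and 80. The ignore mark removed the fourth spot on both control arrays and on 1.5% ethanol replicate 1, and left it on both 1% arrays and on 1.5% ethanol replicate 2. The 1% mean thus held a low spot, while the same spot was left out of the control mean, where it was not low. With the ignore-marked spots kept on all arrays, the miR-430b log2 fold change at 1% ethanol against control was -0.35 (interval -0.87 to 0.18). With them left out it was -0.25, so the lower reading was present with and without the mark.

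With the first 3 spots alone, a choice made after the spots were seen, the miR-430b level was 10.31 and 10.39 at 1% ethanol, against 10.23 and 10.06 in control. Both 1% arrays then lay above both controls, as for 20.6% of all probes by the usable spots. The log2 fold change was 0.20 (SE 0.17, interval -0.21 to 0.62, limma adjusted p = 0.873). At 1.5% ethanol it was -0.04 against control (limma adjusted p = 0.977). Between 1.5% and 1% ethanol it was -0.25 (interval -0.66 to 0.17, limma adjusted p = 0.868). Both 1.5% arrays, at 10.21 and 9.99, lay below both 1% arrays, as for 16.5% of all probes by the usable spots. No call was made either way. A low spot of this kind was common: of 194 probe and array pairs above the empty spots with 4 usable spots, 51 (26.3%) had a lowest spot under 0.5 times the median of the other 3. By that ratio miR-430b on 1% ethanol replicate 2 ranked 19th from the lowest.

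**Figure D4:**
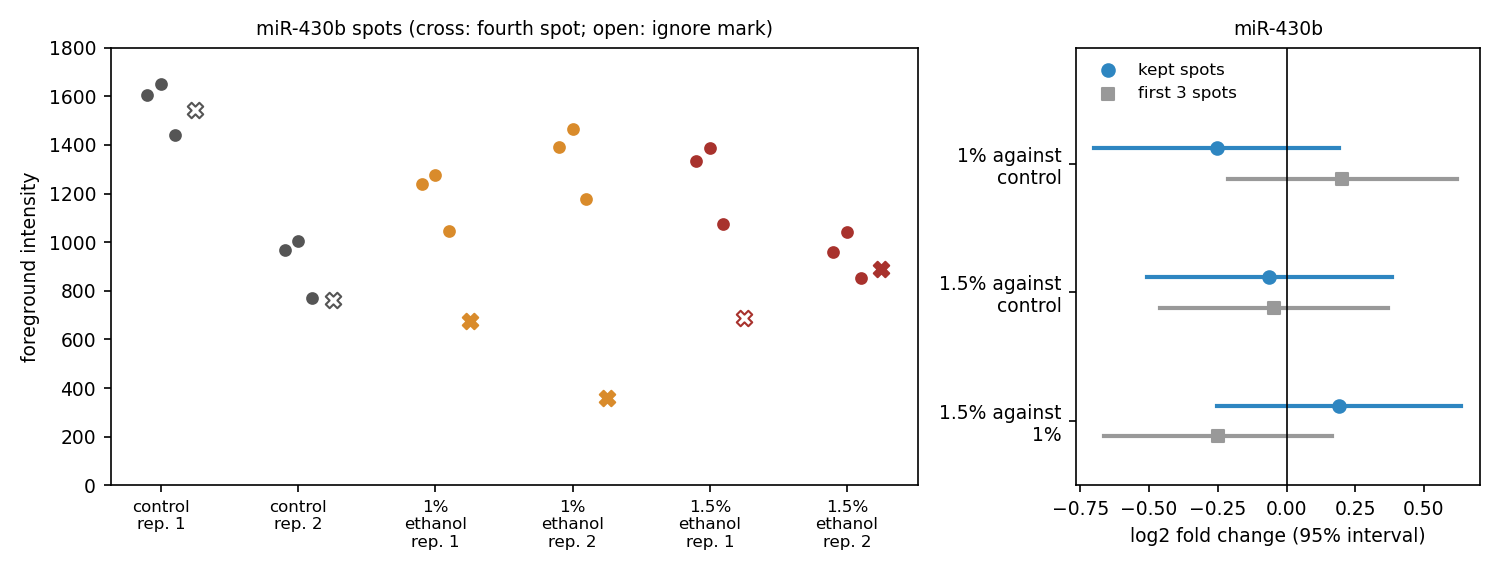
Raw foreground intensity of the 4 miR-430b spots on each of the 6 arrays, in the order control, 1% and 1.5% ethanol, with the fourth spot as a cross and ignore-marked spots open; beside it, the miR-430b log2 fold changes with 95% intervals by the kept spots and by the first 3. The fourth spot reads 678 and 359 on the 1% arrays and is kept there, while it is marked on both controls, where it reads 1545 and 764.

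The balance between the 2 members above the empty spots on all arrays was followed within each array. It was taken as the log2 level of miR-430j minus that of miR-430b. Its size on an array depends on both probes and carries no ratio of the miRNAs, so only its change with dose is compared. The difference was 0.57 and 0.93 in control, 0.72 and 1.14 at 1% ethanol, and 0.52 and 0.67 at 1.5% ethanol. Its mean was 0.93 ± 0.30 at 1% ethanol, against 0.75 ± 0.26 in control, a change of 0.18 (SD, n = 2 each, two-sided exact permutation p = 0.667). It was 0.59 ± 0.11 at 1.5% ethanol, against 0.75 ± 0.26 in control, a change of -0.16 (two-sided exact permutation p = 0.667). With 2 arrays against 2 the smallest p possible is 0.333, so this test could not pass. By the usable spots both changes were smaller than the spread within groups, an SD of 0.24.

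With the first 3 miR-430b spots the difference was 0.40 and 0.54 at 1% ethanol, against 0.57 and 0.93 in control, and the change was -0.28. At 1.5% ethanol it was 0.52 and 0.63, against the same controls, and the change was -0.18. Both changes were then larger than the within-group SD of 0.17. With 2 arrays a group that SD is also the standard error of such a change, so exceeding it does not separate a change from zero. Both 1% arrays lay below both controls (two-sided exact permutation p = 0.333 at 1% and 0.667 at 1.5% ethanol, n = 2 each). Across the 6 arrays, which share their labelling and scaling, miR-430j and miR-430b had a Pearson r of -0.18 by the usable spots and of 0.23 by the first 3 miR-430b spots. By the usable spots miR-430j minus miR-430a changed by -0.18 at 1% and by -0.41 at 1.5% ethanol, and miR-430b minus miR-430a by -0.36 and -0.26. For these pairs miR-430a was above the empty spots on 1 array.

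**Figure D5:**
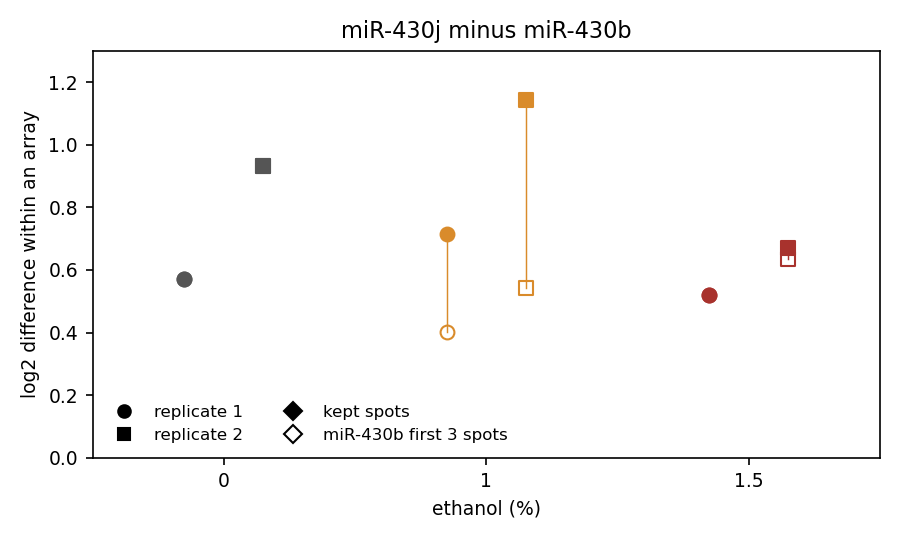
Within-array log2 difference of miR-430j minus miR-430b for control, 1% and 1.5% ethanol, with a point for each array, by the usable miR-430b spots (filled) and, where this differs, by its first 3 spots (open). The change in mean at 1% ethanol against control is 0.18 with the usable spots and -0.28 with the first 3 spots.

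Pairs of arrays of different groups shared a slide, as inferred from the scanner files. Slide 1 held 1% ethanol replicate 1 and control replicate 1, slide 2 held 1.5% ethanol replicate 1 and control replicate 2, and slide 3 held both replicates 2 of the ethanol doses. For miR-430j the difference was -0.09 for 1% ethanol minus control on slide 1, -0.26 for 1.5% ethanol minus control on slide 2 and -0.31 for 1.5% minus 1% ethanol on slide 3. The array with more ethanol was the lower one on each of the 3 slides, as for 14% of all probes. For miR-430a and miR-430c it was the higher one on each, at readings mostly not above the empty spots, as for 9.05% of all probes. With slide as a block the miR-430j log2 fold change at 1.5% ethanol was -0.31 (SE 0.43, limma adjusted p = 0.998). In that fit its interval was as wide as that of miR-430b, so the SE does not measure the spread of miR-430j alone. For miR-430b the within-slide differences were -0.24 for 1% ethanol minus control, 0.15 for 1.5% ethanol minus control and 0.16 for 1.5% minus 1% ethanol. With the first 3 miR-430b spots they were 0.08, 0.15 and -0.40, so the signs of the first and the third differences turned without the fourth spot.

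Raw intensity of miR-430j also moved with the inferred position of the array on its slide, low or high along the scan axis. Each group had 1 array at each position. The array with more ethanol was at the high position on slides 1 and 3 and at the low position on slide 2. Dose and position therefore cannot be told apart within a slide. For miR-430j the array at the low position was brighter than that at the high one in every group. Its median foregrounds were 2479 and 1675 in control, 1975.5 and 1554 at 1% ethanol, and 1856 and 1463 at 1.5% ethanol. This was not particular to miR-430j. The median over all zebrafish spots was 226 and 166 in control, 172 and 165 at 1% ethanol, and 184.5 and 169 at 1.5% ethanol. The medians of miR-430b went the same way in every group. After normalisation the low-position array was the higher one for miR-430j at both doses and the lower one in control. With position as a block, an alternative chosen after the data were seen, 0 members were called and the lowest adjusted p over members was 0.921 at 1% and 0.978 at 1.5% ethanol.

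Related miRNAs were read from the same arrays. The miR-17 family carries nearly the seed of miR-430 shifted by a base, and 4 of its members were on the arrays as zebrafish probes, miR-17a, miR-20a, miR-20b and miR-93. On no array did any of the 4 rise above the empty spots, 0 were called at either dose, and normalised levels lay between 7.02 and 7.91. miR-430 counterparts in mammals are the miR-302, miR-372, miR-373 and miR-290 to miR-295 groups of early embryos and stem cells, for which 22 probes named for human or mouse were printed. Signal above the empty spots on all arrays was found for 3, hsa-miR-302b*, mmu-miR-292-5p and mmu-miR-302b*, whose names mark the opposite arm of the hairpin. Normalised levels ran from 10.10 to 11.03 for hsa-miR-302b*, from 8.58 to 9.28 for mmu-miR-292-5p and from 8.44 to 8.88 for mmu-miR-302b*. Signal above the empty spots does not show which RNA a probe bound, and for miR-430j and miR-430b this was not tested. In a fit of all 1078 miRNA probes, 0 of the 22 were called at either dose.

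The zebrafish miRNAs most like miR-430j and miR-430b were sought among 26 other probes above the empty spots on all arrays. The measure was Pearson's r with the mean of miR-430j and miR-430b over the 6 arrays. The nearest were miR-132, miR-218a and miR-22a, at r = 0.70, 0.46 and 0.28. These values describe 6 arrays that share labelling and scaling, and they too depended on the fourth miR-430b spot. With the first 3 spots they were 0.36 for miR-132, -0.12 for miR-218a and 0.32 for miR-22a, and the nearest were then miR-9, miR-1 and miR-146b, at r = 0.89, 0.80 and 0.76. By the usable spots the match of miR-132, a miRNA enriched in neurons, lay with miR-430j (r = 0.80) and hardly with miR-430b (r = 0.15). miR-132 read 13.14 and 13.42 at 1% ethanol and 13.26 and 13.27 at 1.5% ethanol, against 13.54 and 13.66 in control.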

How the data were processed

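Total RNA of 6 pools of whole embryos was labelled with Cy3, per the labels' protocols. The deposited scanner files hold raw foreground and local background intensity of each spot, per the file headers. The deposited value table is log2; rebuilt from the scanner files, 1438 of 1440 of its values came within 0.001, as mean log2 foreground of usable spots minus that of the Ncode_Control spots. Its column medians ran from -0.198 to 0.483 and 18 values were missing, among them miR-430c on 1.5% ethanol replicate 2.

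From the raw intensities, background was corrected by normexp (offset 50), spots marked to be ignored were dropped, the 4312 miRNA spots were quantile normalised on the log2 scale, and a probe's spots were averaged. limma 3.58.1 in R 4.3.3 fitted the 3 groups on 6 arrays (3 residual degrees of freedom, prior 3.15). The fit was also run on simulated data with added changes larger than any member difference here. That run does not tell whether changes of the members' size would be found. The balance was tested by exact permutation.

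Members, lists and tests were chosen with earlier results of these data known. Every member was named, plus the 3 probes nearest in pattern. The measure of signal above the empty spots was chosen after the data were seen. Slides were inferred from experiment names in the headers, and positions on a slide from spot coordinates. Replicate numbers were not used as pairs in the main fit. The correlation of same-numbered deviations over 243 probes was -0.03 for 1% ethanol and control, 0.27 for 1.5% ethanol and control and -0.04 for both doses. Same-numbered arrays of control and 1.5% ethanol also shared a position on the slide, so these values cannot settle whether replicates were paired. Alternatives were other background, scaling, filter and spot settings, blocks, the authors' table and leaving out each array.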

Additional observations from a re-analysis of the deposited data

How the results depend on the processing

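Over 22 alternatives, 4 of them chosen after the data were seen, 432 log2 differences of members were recomputed. Of these, 369 kept their sign, 63 turned, and 0 passed the threshold, the lowest limma adjusted p being 0.380 under Ncode_Control scaling. Many of the 369 could not turn. The replicate and position blocks and the choice of probes tested leave every difference as it is. Leaving out miR-430b spot 4 leaves those of the other members, and leaving out an array those of the comparison without its group. The replicate block changed no member's call (lowest adjusted p 0.842 at 1%, 0.924 at 1.5%, 0.836 between doses, 0.844 for both doses and 0.856 for the F test). Turned values follow in the order 1% against control, 1.5% against control, 1.5% against 1% and both doses against control, and those of miR-430a, miR-430c and miR-430i are differences between readings near background.

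At 1% against control, turned values were 0.16 for miR-430b and 0.21 for miR-430j in the authors' table, 0.030 for miR-430j under Ncode_Control scaling, 0.084 for miR-430b and -0.019 for miR-430c by the median over spots, 0.20 for miR-430b without spot 4, 0.22, -0.016 and -0.052 for miR-430b, miR-430c and miR-430i in print rows 1 to 3, and 0.0086 for miR-430j in print rows 4 to 6. At 1.5% against control they were 0.42, 0.29 and 0.28 for miR-430b, miR-430c and miR-430j under Ncode_Control scaling, 0.27, 0.31 and 0.11 for the same 3 in the authors' table, 0.050 for miR-430b under cyclic loess, -0.0047 for miR-430i without normalisation, 0.076 and 0.18 for miR-430b and miR-430c with the slide block, and 0.012 for miR-430c in print rows 1 to 3. At 1.5% against 1% they were 0.25 for miR-430j under Ncode_Control scaling, 0.082 for miR-430j under cyclic loess, 0.19 for miR-430j with ignore-marked spots kept, -0.12 for miR-430i under 75th percentile scaling, -0.053 and -0.21 for miR-430a and miR-430i without normalisation, -0.17 for miR-430b by the median over spots, -0.25 for miR-430b without spot 4, -0.26 and 0.029 for miR-430b and miR-430c in print rows 1 to 3, and 0.030 for miR-430c with the slide block. For both doses they were 0.15, 0.38 and 0.15 for miR-430b, miR-430c and miR-430j under Ncode_Control scaling, 0.22, 0.33 and 0.16 for the same 3 in the authors' table, 0.054 for miR-430c under 75th percentile scaling, 0.0081 for miR-430c without background subtraction, 0.17 for miR-430c with the slide block, 0.079 for miR-430b without spot 4 and 0.086 for miR-430b in print rows 1 to 3.

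Leaving out 1 array at a time, in fits where the lone array is assumed to vary like the other groups, miR-430j ran from -0.19 to 0.035 at 1% and stayed between -0.32 and -0.12 at 1.5%, and miR-430b ran from -0.36 to -0.15 at 1% and from -0.19 to 0.066 at 1.5%. For miR-430a the ranges were -0.093 to 0.30, -0.0034 to 0.39, -0.074 to 0.25 and -0.048 to 0.35 in the order of the comparisons, and for miR-430c -0.22 to 0.26, -0.18 to 0.073, -0.31 to 0.16 and -0.13 to 0.10. miR-430i ran from -0.0058 to 0.068 at 1%. The change in balance ran from -0.037 to 0.39 at 1% and from -0.34 to 0.022 at 1.5%. At 1% the balance change was -0.17 by the median over spots, -0.28 without miR-430b spot 4, -0.37 in print rows 1 to 3 and 0.64 in print rows 4 to 6.

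Calls over all probes, 1, 0, 0, 1 and 1 for the 4 comparisons and the F test, became 3, 2, 4, 2 and 6 with the slide block. The 1% count was 0 under Ncode_Control scaling, the median over spots, no normalisation, print rows 4 to 6 and the authors' table, and 2 with all miRNA probes or print rows 1 to 3. At 1.5% the authors' table gave 1. Between doses the count was 2 under Ncode_Control scaling and without normalisation, 1 with all miRNA probes or print rows 1 to 3, and 3 in the authors' table. For both doses it was 0 under Ncode_Control scaling, all miRNA probes, cyclic loess, the median over spots, no normalisation, the replicate block, print rows 4 to 6 and the authors' table. The F test gave 0 under 75th percentile and Ncode_Control scaling, cyclic loess, the median over spots, no normalisation, a test of those probes alone that rose above empty spots somewhere, the replicate block, print rows 4 to 6 and ignore-marked spots kept, 2 in print rows 1 to 3 and 3 in the authors' table. Without 1 array the counts ran from 0 to 3 at 1% and between doses and from 0 to 1 for the F test, and were 0 elsewhere. None of these calls was a member, and the causes were not tested. Signal near that of empty spots limits miR-430a, miR-430c and miR-430i.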
